A study of Mus musculus with 6 samples.

Results

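The erythroid regulators and red cell enzymes described here are 9 genes: the transcription factors Klf1 and Gata1, the erythropoietin receptor gene Epor, the nuclear factor Hemgn, the ubiquitin ligase gene Trim10, the enzyme genes Bpgm and Car1, and the membrane protein genes Tspo2 and Ermap. They were chosen by symbol from a RefSeq gene table, among 20659 genes with a symbol on the array, and every matching probe was kept separate. This gave 12 probes of 39429. The test took probes with a value on every array and a signal well above background on 3 or more of the 6, and 10 of the 12 met this. They belong to 8 genes. The Gata1 probe and 1 of 3 Ermap probes did not enter it.

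Liver samples of both genotypes were measured: 3 from mice labelled Sec15 KO and 3 from WT mice, all male, 6 weeks of age and untreated. Sec15 is a subunit of the exocyst, which docks vesicles at the cell surface for secretion, and the series concerns STAT3 transport and blood stem cell fate. The labels give no promoter, Cre or deleted exon for the knockout, no strain, and no statement that each sample came from its own animal. Some of the spread between samples behind the p-values may thus be technical. Total RNA was labelled with Cy3 and hybridised to 1 Agilent one-colour array per sample, so the values are spot brightness and not read counts.

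Red cells arise from blood stem cells through erythroblasts, in which Gata1 and Klf1 switch on the globins, the enzymes of haem synthesis and the proteins of the red cell membrane. Erythropoietin, read by its receptor Epor through the kinase Jak2 and STAT5, keeps these cells alive. The liver is the main site of red cell formation in the mouse fetus, and in the adult it holds circulating red cells and the macrophages that clear old ones. Adult red cells of mammals have no nucleus, but the youngest of them still carry RNA.

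A level is given throughout as log2 processed signal relative to the 75th percentile of the same array, so 0 is the level of that percentile and 1 unit is a doubling. Levels of different probes are not compared with each other. Differences are KO minus WT. A difference was called when its limma p-value, after Benjamini-Hochberg adjustment across the 27024 probes tested, was under 0.05.

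Both Sec15 genes, Exoc6 and Exoc6b, are on the array. The single Exoc6 probe was detected on 0 KO arrays and 1 WT array. Its levels overlapped, at -3.60, -4.03 and -3.77 in KO livers against -3.99, -3.93 and -3.78 in WT livers. Exoc6b probe A_55_P1997415 read 0.14, -0.03 and -0.06 in KO livers, against 0.31, 0.78 and 0.55 in WT livers. This difference of -0.53 was called lower (limma adjusted p = 0.0436). The second Exoc6b probe was not well above background on any array. These probes check the genotype only if they lie in the deleted part, which the labels do not give. The scan times in the file headers put KO replicate 2 with the 3 WT arrays, and KO replicates 1 and 3 at another time. With scan time as a block the Exoc6b difference was -0.58 and was not called. WT replicates 1 and 2 carry the same number in their deposited names, although their signals lay further apart (median absolute difference of 0.245) than those of WT replicates 2 and 3 (0.136). The 12 hepatocyte markers, among them the albumin gene Alb and the liver transcription factor gene Hnf4a, which define the labelled tissue, were well above background on all 6 arrays. Detection covered 64.8% to 65.4% of probes on KO arrays and 67.3% to 70.3% on WT arrays.

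Of the 10 probes tested, 3 were called higher and 1 lower in KO liver. The higher ones belonged to Bpgm, Hemgn and Ermap and the lower one to Tspo2. Over all probes tested, 17% were called higher and 11.6% lower, so a call in itself was common on these arrays. All 3 KO values lay above all 3 WT values for 5 of the 10 probes and below them for 3, while 30.6% of all probes tested were above and 19.6% below. The median difference was 0.32 over the 10 probes and 0.08 over all probes tested. One Ermap probe passed the filter through the KO arrays alone and had to differ. Among the 9 probes well above background on all 6 arrays, 2 were called higher and 1 lower in the same fit, with a median difference of 0.31. When that filter was applied before the fit, 5186 of 23082 probes were called higher and 2871 lower, with a median of 0.12. In that refit Epor was also called higher and Car1 probe A_55_P2099952 lower. In bulk liver RNA, fewer cells of a type and less RNA per cell cannot be told apart.

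**Figure D1:**
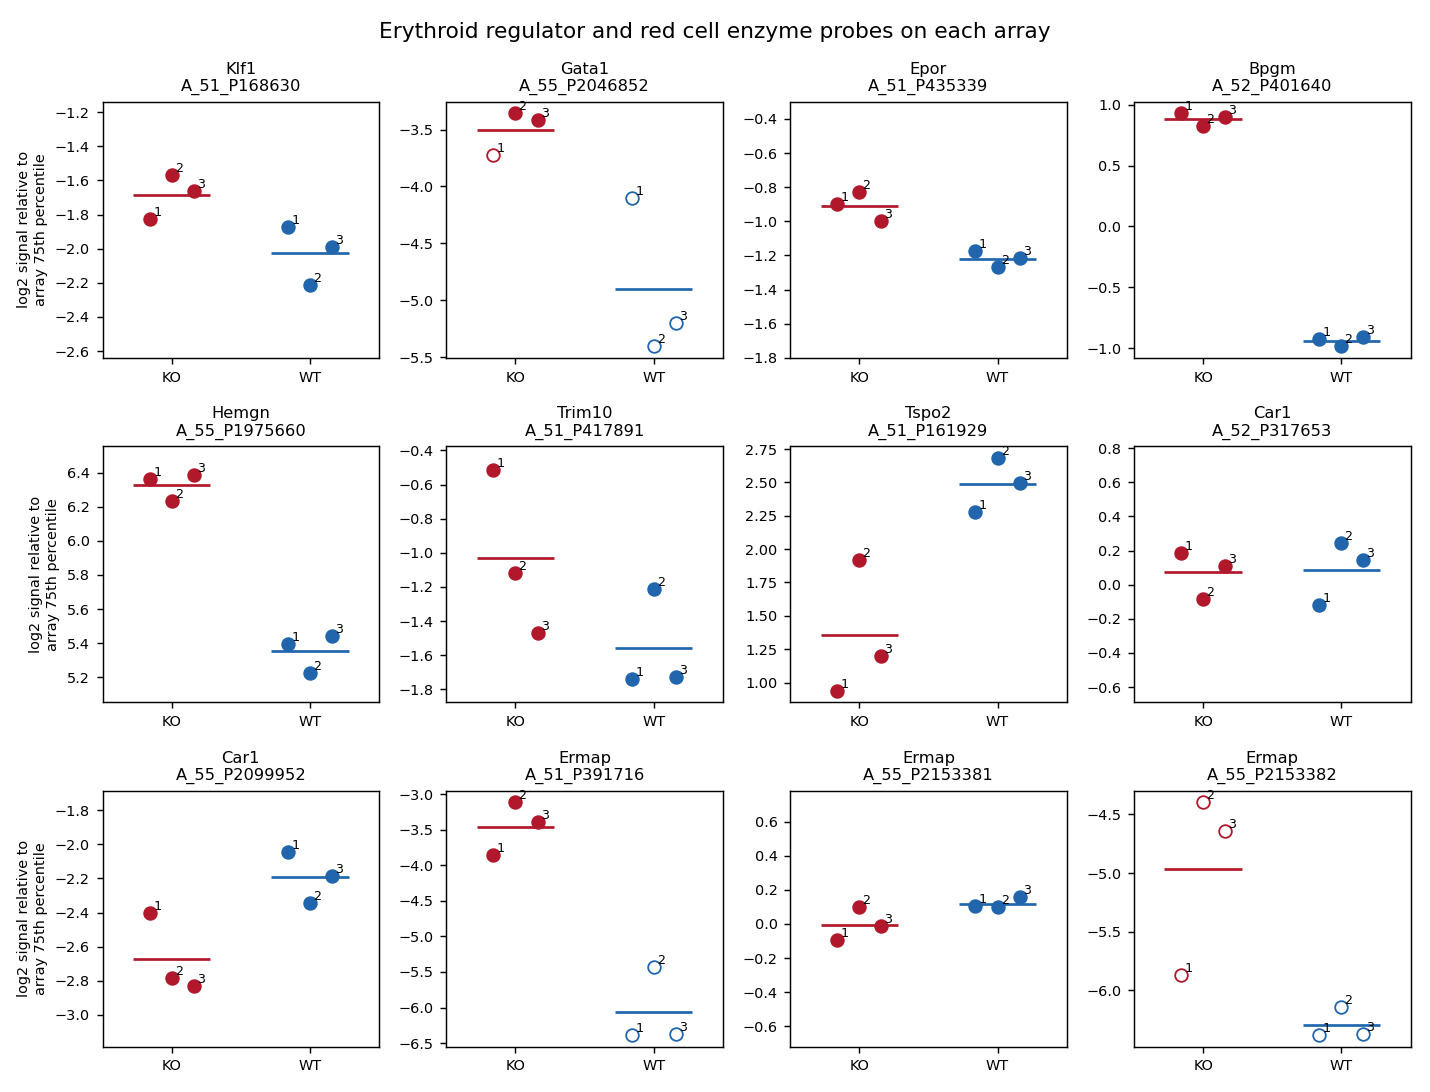
Level of each of the 12 probes on each array (log2 signal relative to the array's 75th percentile, with its own scale in each panel), KO left and WT right. Numbers are replicates, lines are group means, filled points were well above background and open points were not. The KO and WT points of Bpgm and Hemgn lie far apart with little spread, those of Tspo2 lie apart with a wide KO spread, and those of Trim10 and of Car1 probe A_52_P317653 overlap.

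Among the regulators, Hemgn was called higher and Klf1, Epor and Trim10 were not called. Klf1 encodes a zinc finger factor that binds CACCC-type boxes of the beta globin promoter. Its probe A_51_P168630 read -1.82, -1.57 and -1.66 in KO livers, against -1.87, -2.21 and -1.99 in WT livers. All 3 KO values lay above the WT values, but KO replicate 1 and WT replicate 1 were only narrowly apart. The difference of 0.34 (SE 0.13) did not pass the test (adjusted p = 0.0969). It passed in 3 of 17 alternative settings and not in the other 14. The 3 were quantile normalisation (0.44, adjusted p = 0.0418), median centring (0.46, adjusted p = 0.0383) and normexp background correction (0.32, adjusted p = 0.0274).

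Gata1 encodes the zinc finger factor that erythroid cells need to mature, and megakaryocytes, mast cells and eosinophils use it too. Probe A_55_P2046852 read -3.73, -3.36 and -3.42 in KO livers, against -4.11, -5.40 and -5.20 in WT livers. Only KO replicates 2 and 3 were well above background, so the probe is below the filter and no fold change is given. Its level in the other 4 samples was not detectable above background on this array.

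Epor, the receptor through which erythropoietin acts, was read by probe A_51_P435339 at -0.900, -0.830 and -0.998 in KO livers, against -1.17, -1.27 and -1.21 in WT livers. Its groups did not overlap, and the difference of 0.31 (SE 0.09) had an adjusted p of 0.055, just above the threshold. It passed in 3 of 17 alternative settings and not in the other 14. The 3 were quantile normalisation (0.37, adjusted p = 0.0306), median centring (0.43, adjusted p = 0.0295) and the filter on all 6 arrays (0.31, adjusted p = 0.043).

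Hemgn encodes hemogen, a nuclear protein of blood-forming cells that lies downstream of Gata1. On probe A_55_P1975660 the KO livers read 6.36, 6.23 and 6.38, against 5.39, 5.22 and 5.44 in WT livers. The processed signals behind these levels were 23005, 20041 and 20036 in KO and 13179, 10405 and 11205 in WT, none of them saturated. Every KO array stood above every WT array by more than the spread within either group. The means were 6.33 ± 0.08 in KO and 5.35 ± 0.12 in WT (SD, n = 3 each). Hemgn rose 1.96-fold (log2 difference 0.97, SE 0.11, adjusted p = 0.00677). This rests on the only Hemgn probe of the array, and whether that bright probe reads Hemgn alone was not tested.

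Trim10, a tripartite motif ubiquitin ligase needed for terminal erythroid differentiation in mouse cell culture, was read by 1 probe. This probe, A_51_P417891, gave -0.51, -1.12 and -1.47 in KO livers, against -1.74, -1.21 and -1.73 in WT livers. KO replicate 3 lay below WT replicate 2, so the groups overlapped. The difference of 0.53 (SE 0.28) did not pass the test (adjusted p = 0.191).

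Of the 2 red cell enzymes, Bpgm was called higher and Car1 was not called on either probe. Bpgm encodes bisphosphoglycerate mutase, which makes the 2,3-bisphosphoglycerate that lowers the oxygen affinity of haemoglobin. Its probe A_52_P401640 read 0.93, 0.82 and 0.90 in KO livers, against -0.92, -0.98 and -0.91 in WT livers. The spread within each group was small beside the gap between them, with means of 0.88 ± 0.05 in KO and -0.94 ± 0.04 in WT (SD, n = 3 each). Bpgm rose 3.54-fold (log2 difference 1.82, SE 0.09, adjusted p = 0.00216).

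Car1 encodes carbonic anhydrase 1, a cytosolic enzyme of red cells that interconverts carbon dioxide and bicarbonate and is also made in the colon. Probe A_52_P317653 read 0.19, -0.08 and 0.11 in KO livers, against -0.12, 0.24 and 0.15 in WT livers. These values overlapped fully, and the difference of -0.02 (SE 0.14, adjusted p = 0.932) changed sign in 5 of 17 alternative settings, so it has no settled direction. The second probe, A_55_P2099952, read -2.40, -2.78 and -2.83 in KO livers, against -2.04, -2.34 and -2.19 in WT livers. Here all KO values lay below the WT values, with a difference of -0.48 (SE 0.15, adjusted p = 0.0627) that passed only when detection on all 6 arrays was required (adjusted p = 0.0485). The 2 Car1 probes therefore did not give the same pattern, and neither was called.

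Of the membrane protein genes, Tspo2 was called lower and the Ermap probes disagreed. Tspo2 encodes an erythroid relative of the mitochondrial translocator protein Tspo and is linked to cholesterol handling in maturing erythroblasts. Its only probe, A_51_P161929, read 0.94, 1.92 and 1.20 in KO livers, against 2.28, 2.68 and 2.50 in WT livers. Whether that probe reads Tspo2 alone was not tested. All KO values lay below the WT values, and the KO spread was the wider one (1.35 ± 0.51 in KO and 2.49 ± 0.20 in WT, SD, n = 3 each). Tspo2 was 2.20-fold lower in KO liver (log2 difference -1.13, SE 0.27, adjusted p = 0.0295). This call ended in 7 of 17 alternative settings. It ended without KO replicate 1 (-0.93, adjusted p = 0.0757), without KO replicate 3 (-1.06, adjusted p = 0.106), without WT replicate 2 (-1.04, adjusted p = 0.0953) and without WT replicate 3 (-1.13, adjusted p = 0.103). Averaging WT replicates 1 and 2 also ended it (-1.14, adjusted p = 0.059), as did both settings on scan time.

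Ermap encodes the erythroid membrane-associated protein, an immunoglobulin family member that carries the Scianna blood group in humans. Its 3 probes disagreed. Probe A_51_P391716 read -3.85, -3.12 and -3.40 in KO livers, against -6.39, -5.42 and -6.37 in WT livers, with detection above background on the 3 KO arrays and on 0 WT arrays. Against the lowest signal of any probe that counted as detected on the WT arrays, the KO mean was 1.58-fold higher. Undetected probes can read above that level, so this fold is not a strict lower bound. The probe passed the filter through the KO arrays alone and had to differ, so its limma adjusted p of 0.008 is not evidence of a rise. Its measured means were -3.45 in KO and -6.06 in WT. Without WT replicate 3 the adjusted p was 0.0508, and with normexp background correction the difference was 0.42 in place of 2.61.

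The brightest Ermap probe, A_55_P2153381, read -0.10, 0.10 and -0.01 in KO livers, against 0.10, 0.10 and 0.16 in WT livers. KO replicate 2 and WT replicate 2 were almost equal, and the difference of -0.12 (SE 0.10) did not pass the test (adjusted p = 0.35). The third probe, A_55_P2153382, was not well above background on any array. It read between -5.86 and -4.40 in KO livers and between -6.38 and -6.14 in WT livers. No single direction can be given for Ermap from these probes.

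Scan time was set beside each difference, since only KO replicate 2 was scanned with the WT arrays. With scan time as a block, 3 of the 10 probes were called higher and 0 lower, against 4.85% and 4.48% of all probes tested. Among the 9 probes well above background on all 6 arrays, 2 were called higher. In limma 2 of the 10 probes lay lower at an unadjusted p under 0.05 in that fit. Bpgm kept its call (1.76, adjusted p = 0.0181), as did Hemgn (0.88, adjusted p = 0.0306). The third was Ermap probe A_51_P391716 (adjusted p = 0.0313), which had to differ, as it passed the filter through the KO arrays alone. The difference of Tspo2 was -0.57 (adjusted p = 0.124), because this fit sets KO replicate 2 alone against the WT arrays. KO replicates 1 and 3 differed from the WT mean of Tspo2 by -1.55 and -1.29. The part of scan time in the Tspo2 result was not tested further, as no WT array was scanned with those 2 KO arrays.

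**Figure D2:**
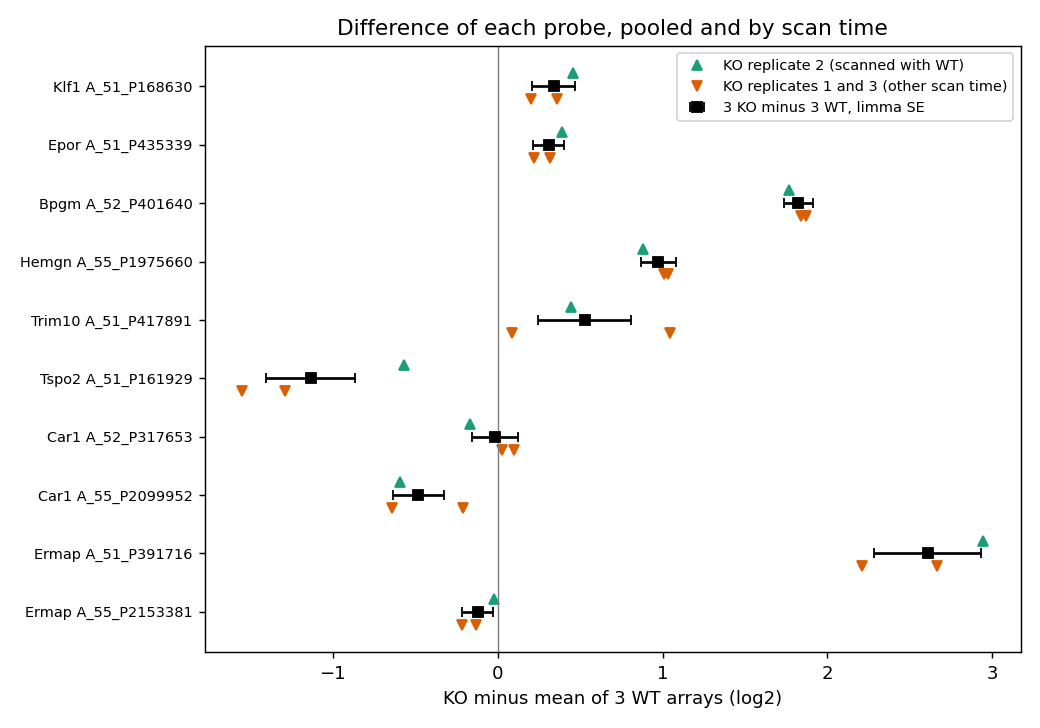
Difference from the WT mean (log2) for each of the 10 probes tested. Squares are the 3 KO minus 3 WT difference with its limma SE, upward triangles KO replicate 2, which was scanned with the WT arrays, and downward triangles KO replicates 1 and 3. For Bpgm and Hemgn the triangles lie close together, while for Tspo2 KO replicate 2 is at -0.57 and the other KO arrays at -1.55 and -1.29.

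Leaving out any 1 replicate moved Bpgm between 1.80 and 1.85 and Hemgn between 0.91 and 1.02, with adjusted p-values of at most 0.0236 and 0.0499. The arrays of the shared scan time alone, 1 KO against 3 WT, gave no call for Bpgm (1.76, adjusted p = 0.0767), Hemgn (0.88, adjusted p = 0.0889), Tspo2 (adjusted p = 0.172) or Ermap (adjusted p = 0.0879). In that setting the lone KO array is assumed to vary like the WT arrays.

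**Figure D3:**
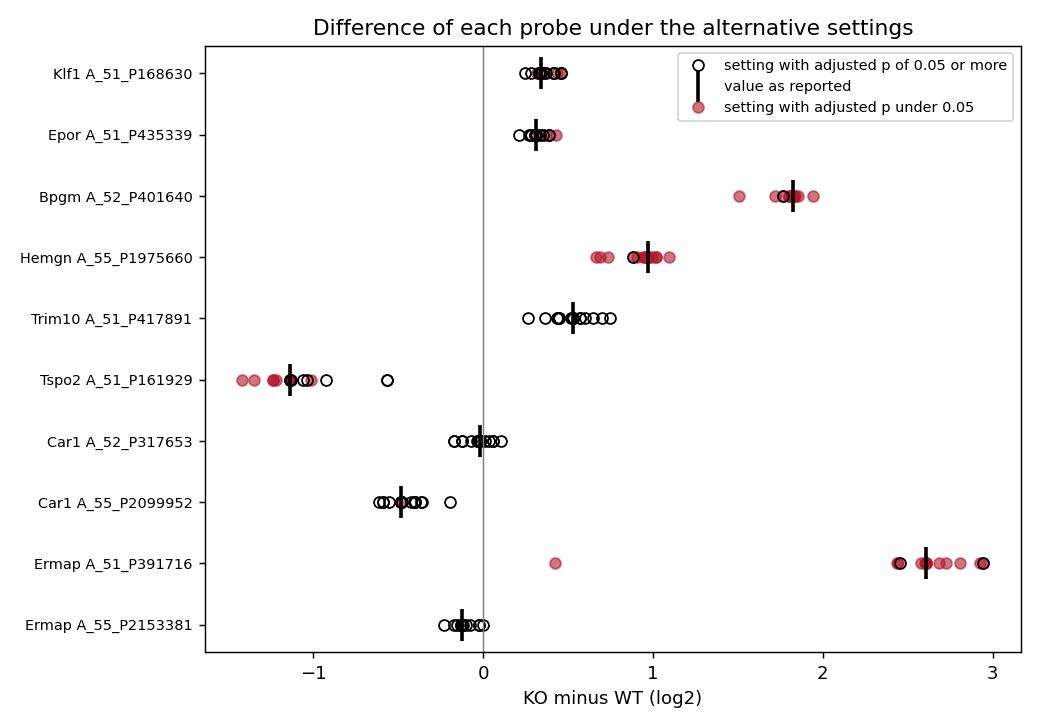
KO minus WT difference (log2) of each tested probe under each alternative setting. Vertical bars mark the reported value, filled points settings with an adjusted p under 0.05 and open points the others. Bpgm stays between 1.50 and 1.94 and Hemgn between 0.66 and 1.09, Tspo2 is negative throughout with 7 open points, and Car1 probe A_52_P317653 lies on both sides of 0.

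The promoters of the 4 genes with a called probe are shown because erythroid promoters are known for GATA and CACCC-type boxes. RefSeq sequences of the 250 bases before the transcript start (build GRCm38.p6, 5′ to 3′ on the gene's strand) were available for 8 of the 9 genes. Capitals mark matches to AGATAA or AGATAG or TGATAA or TGATAG (called GATA letters here) or to CCNCNCCC (called KLF letters here), on either strand. Neighbouring matches can overlap and then form a longer run of capitals. Bpgm lies on the plus strand with its window at chr6:34476106-34476355, and the others are on the minus strand, at chr4:46404184-46404433 for Hemgn, chr4:119189996-119190245 for Ermap and chr17:48451502-48451751 for Tspo2.
Bpgm: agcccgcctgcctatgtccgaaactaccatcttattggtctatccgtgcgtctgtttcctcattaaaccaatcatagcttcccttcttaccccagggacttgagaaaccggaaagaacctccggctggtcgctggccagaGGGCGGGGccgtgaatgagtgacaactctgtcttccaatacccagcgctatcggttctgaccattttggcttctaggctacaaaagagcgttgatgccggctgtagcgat
Hemgn: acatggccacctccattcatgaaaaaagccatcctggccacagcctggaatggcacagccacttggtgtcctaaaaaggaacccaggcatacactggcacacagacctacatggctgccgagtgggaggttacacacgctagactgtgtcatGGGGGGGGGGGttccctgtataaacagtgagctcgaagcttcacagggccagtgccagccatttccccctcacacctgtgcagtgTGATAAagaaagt
Ermap: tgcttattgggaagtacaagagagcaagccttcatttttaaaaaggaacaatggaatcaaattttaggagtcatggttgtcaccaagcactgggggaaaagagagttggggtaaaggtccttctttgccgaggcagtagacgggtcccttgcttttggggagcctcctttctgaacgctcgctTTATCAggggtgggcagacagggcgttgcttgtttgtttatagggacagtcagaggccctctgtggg
Tspo2: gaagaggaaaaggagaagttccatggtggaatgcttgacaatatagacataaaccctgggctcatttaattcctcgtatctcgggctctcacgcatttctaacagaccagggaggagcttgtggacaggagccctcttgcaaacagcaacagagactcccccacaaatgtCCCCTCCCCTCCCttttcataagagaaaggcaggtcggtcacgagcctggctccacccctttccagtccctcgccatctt

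GATA letters were present in 5 of the 8 windows, those of Klf1, Epor, Hemgn, Trim10 and Ermap, and in 26.5% of 32851 mouse promoter windows of the same length. The match of Hemgn begins 13 bases before the transcript start and that of Ermap 67 bases before it. KLF letters were present in 5 of the 8 windows, those of Gata1, Epor, Bpgm, Hemgn and Tspo2, and in 45.9% of all windows. The 4 matches of Hemgn overlap within 1 run of G. The STAT letters TTCNNNGAA were in 0 of the 8 windows and in 7.02% of all windows. Bpgm and Hemgn, both called higher, and Tspo2, called lower, all hold KLF letters, and only Hemgn of these 3 holds GATA letters. A match is a description of the letters and not a binding site.

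The relatives of these genes were measured on the same arrays. Car2, the fast carbonic anhydrase of red cells, read 1.24, 1.18 and 1.32 in KO livers, against -0.43, -0.89 and -0.76 in WT livers. Unlike either Car1 probe it was called, and it rose 3.84-fold (log2 difference 1.94, SE 0.14, adjusted p = 0.00425). Tspo, the widely expressed relative of Tspo2, rose by 0.44 (SE 0.12, adjusted p = 0.0386), with means of 1.103 ± 0.151 in KO and 0.663 ± 0.088 in WT (SD, n = 3 each). That call ended with scan time as a block (0.27, adjusted p = 0.185). Whether Tspo and Tspo2 differ from each other was not tested.

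Pgam1, a glycolytic mutase related to Bpgm, differed by 0.56 (SE 0.17, adjusted p = 0.0544), and the muscle form Pgam2 was not well above background on any array. Klf2, a relative of Klf1 that is strong in endothelium, rose by 0.83 (SE 0.09, adjusted p = 0.00697), while Klf4 overlapped between the groups (0.27, adjusted p = 0.529). Gata2, the partner that Gata1 replaces as erythroid cells mature, was well above background on 1 KO array and 0 WT arrays. Of 14 measured close relatives, 6 were called higher and 1 lower, against 17.1% and 12.1% of 22810 genes at 1 probe each. For a gene with several probes these counts use the one with the highest mean. Counts per list moved with the arrays used: with 1 replicate left out, between 1 and 8 of these relatives were called higher. For these relatives the low end was reached without WT replicate 3 and the high end without KO replicate 2. The same held for the ranges of the transcription factor, signalling, enzyme, maturation, red cell and macrophage lists that follow, some of which reached an end without other replicates too.

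The wider erythroid transcription factor list had 21 measured genes of 24, with 4 called higher (19.0%), 1 lower (4.76%) and a median difference of 0.16. The share called higher was near that of all genes. Over all genes 17.1% were called higher and 12.1% lower, and these shares also stand beside the lists that follow. With 1 replicate left out, 2 to 7 were called higher, and the median was 0.28 after median centring. E2f2, a cell cycle factor needed for erythroblast divisions and maturation, read 0.08, 0.32 and 0.22 in KO livers, against -1.73, -1.88 and -1.70 in WT livers. It rose 3.94-fold (log2 difference 1.98, SE 0.11, adjusted p = 0.0024). Of the partners of Gata1 on DNA, Lmo2 rose by 0.72 (SE 0.12, adjusted p = 0.0131) and the Tal1 relative Lyl1 by 0.69 (SE 0.12, adjusted p = 0.0152). Tal1, Ldb1 and Gfi1b were not called. Zfpm1 differed by -0.34 on both of its probes, and Cbfa2t3 by -0.61 on its brightest probe and 0.26 on the other. Neither was called. Nfe2, a globin gene activator, was well above background on the KO arrays alone (adjusted p = 0.00814). It was 2.27-fold higher there against the lowest detected signal of any probe, which is not a strict bound. Ikzf1, known best from lymphoid cells, was the 1 called lower, 1.34-fold by the same measure (adjusted p = 0.0175), and was detected on the WT arrays alone. Nfe2 and Ikzf1 each passed the filter through 1 group alone and so had to differ. Of the 21 measured genes, 17 were well above background on all 6 arrays. Myb and Spi1, factors of early blood cells, were not well above background on any array.

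Around Epor, 16 of 21 genes of erythropoietin signalling were measured, with 3 called higher (18.75%), 1 lower (6.25%) and a median difference of 0.20. The share called higher was near the 17.1% of all genes. With 1 replicate left out 0 to 5 were called higher. The median was 0.090 under quantile normalisation, 0.022 under cyclic loess, 0.078 with normexp, 0.32 after median centring and 0.10 with scan time as a block. The erythropoietin gene Epo itself was not well above background on any array. Socs3, an inhibitor of cytokine receptors, fell by 1.21 (SE 0.14, adjusted p = 0.00697), whereas its relative Socs2 rose by 0.80 (SE 0.13, adjusted p = 0.0125) and was called higher on both of its other probes. The kinase gene Lyn rose by 0.71 (adjusted p = 0.0395). The survival gene Bcl2l1 rose by 0.41 on its brightest probe (adjusted p = 0.0308) and differed by -0.78 on the other (adjusted p = 0.198). Jak2 differed by -0.02 (adjusted p = 0.925) and Stat5a by 0.41 (adjusted p = 0.0849). The probes of Stat5b disagreed, with -0.62 on the brightest, which was not called, and 0.31 on the other (adjusted p = 0.0433). With scan time as a block none of the 3 rises in this list was called, and Socs3 was.

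The enzymes that surround Bpgm in red cell metabolism had 7 of 19 measured genes called higher (36.8%) and 2 lower (10.5%). The median difference was 0.32, and 0 to 12 were called higher with 1 replicate left out. The median was 0.16 under cyclic loess, with normexp and with scan time as a block. Nt5c3, the nucleotidase that clears pyrimidines from maturing red cells, rose by 1.47 (SE 0.17, adjusted p = 0.007), and Adk, adenosine kinase, by 0.998 (SE 0.10, adjusted p = 0.00649). Ldha rose by 0.71 on its brightest probe (adjusted p = 0.00737), with 0.78 and 0.02 on its other probes. Gapdh, counted by its brightest probe, differed by 0.05 there and by -0.004 on another probe. All its remaining probes were called lower, with differences between -1.01 and -0.60 (limma adjusted p of at most 0.0148). Pklr, the pyruvate kinase of liver and red cells, fell by 1.18 (SE 0.10, adjusted p = 0.00585). Hepatocytes express most of these enzymes as well.

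Enzymes that guard red cells against oxidation had 5 of 16 measured genes called higher (31.25%) and 0 lower, with a median difference of 0.17. With 1 replicate left out, 0 to 6 were called higher. The direction of this list was not stable: its median was -0.08 with scan time as a block (1 called in each direction), -0.10 after cyclic loess (0 higher and 1 lower in limma) and -0.013 with normexp. Txn1, thioredoxin, rose by 0.59 (SE 0.09, adjusted p = 0.0114). The carbonic anhydrases had 11 measured genes, with Car2 the 1 called higher, 4 called lower (0 to 4 with 1 replicate left out) and a median difference of -0.41, or -0.11 with normexp. Car11, a relative without catalytic activity, fell by 1.09 (SE 0.19, adjusted p = 0.014), and the membrane-bound Car4 by 0.83 (SE 0.18, adjusted p = 0.0218).

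Genes of late red cell maturation had 6 of 21 called higher (28.6%) and 1 lower (4.76%). Their median difference was 0.18, and 3 to 10 were called higher with 1 replicate left out. The median was 0.028 under cyclic loess (4 higher and 2 lower), 0.30 after median centring, and 0.10 under quantile normalisation, with normexp and with scan time as a block. Tent5c, a poly(A) polymerase, rose by 2.05 (SE 0.13, adjusted p = 0.00307). Isg20, an RNA exonuclease, rose by 1.56 (adjusted p = 0.00425) and was also called higher on its other probe. Ube2o, the enzyme that tags ribosomes for removal in reticulocytes, rose by 1.39 (adjusted p = 0.00425). Xpo7, an exporter needed for nuclear condensation, rose by 0.64 (adjusted p = 0.0119) on its brightest probe and differed by -0.51 on the other (adjusted p = 0.159).

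Defining red cell genes were set beside these results. Of 20 measured, 12 were called higher and 1, the ammonia channel gene Rhag, lower (-0.98, adjusted p = 0.0355), with a median difference of 1.18 and of 1.45 with scan time as a block. Some of them passed the filter through the KO arrays alone. With detection required on all 6 arrays 8 of 13 were called higher and 0 lower, with a median of 0.60. When all probes were filtered in that way, 5186 of 23082 were called higher and 2871 lower. With 1 replicate left out 10 to 12 of the 20 were higher. The median of the list was 0.47 with normexp. Their summed signal, relative to the array's 75th percentile, lay between 430 and 542 in KO livers and between 130 and 180 in WT livers. Slc4a1, the anion exchanger of the red cell membrane, rose by 2.08 (SE 0.16, adjusted p = 0.00454). Ank1 and Tmcc2 were each well above background on 2 KO arrays and 0 WT arrays. The part of the red cell signal as a whole in the Bpgm, Hemgn and Tspo2 results was not tested. Tspo2 differed in the direction opposite to 12 of these genes and the same as Rhag. The call of Rhag was not stable. Without KO replicate 1, KO replicate 3 or any 1 WT replicate, 0 genes of the list were called lower. That count was also 0 with scan time as a block and after cyclic loess.

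Other cells that use Gata1 or sit beside erythroblasts were read from their own markers. For macrophages and Kupffer cells 5 of 13 measured markers were called higher (38.5%, and 1 to 10 with 1 replicate left out) and 0 lower. Their summed signal was 51.1 to 65.0 in KO livers and 38.1 to 38.4 in WT livers. With scan time as a block 2 were called higher, and the median was 0.23 in place of 0.40. Some markers had probes that disagreed. Hmox1 differed by 0.56 on its brightest probe and by -0.55 on another (adjusted p = 0.0185), and Adgre1 by 0.40 and -0.83 (adjusted p = 0.102 for the latter). Spic, a factor of the macrophages that recycle red cell iron, rose by 1.95 (SE 0.20, adjusted p = 0.00649), and the scavenger receptor gene Marco by 1.76 (adjusted p = 0.01). Megakaryocyte markers had 1 of 7 called higher and 2 lower, with sums of 0.927 to 1.82 in KO livers and 1.47 to 1.70 in WT livers. The 1 called higher was lost whichever replicate was left out, the number called lower then ran from 0 to 3, and both were 0 in limma with scan time as a block. The median of that list was -0.63, but 0.34 with scan time as a block. Mast cell, basophil and eosinophil markers had 1 of 5 called higher and 2 lower, with sums of 2.70 to 2.96 in KO and 4.74 to 5.86 in WT. With 1 replicate left out 0 to 3 of them were called lower, and the median turned from -0.53 to 0.033 with scan time as a block. Itga2b, of megakaryocytes, was detected on 1 KO array and 0 WT arrays, and Ms4a2 and Epx, of mast cells and eosinophils, on 0 arrays.

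**Figure D4:**
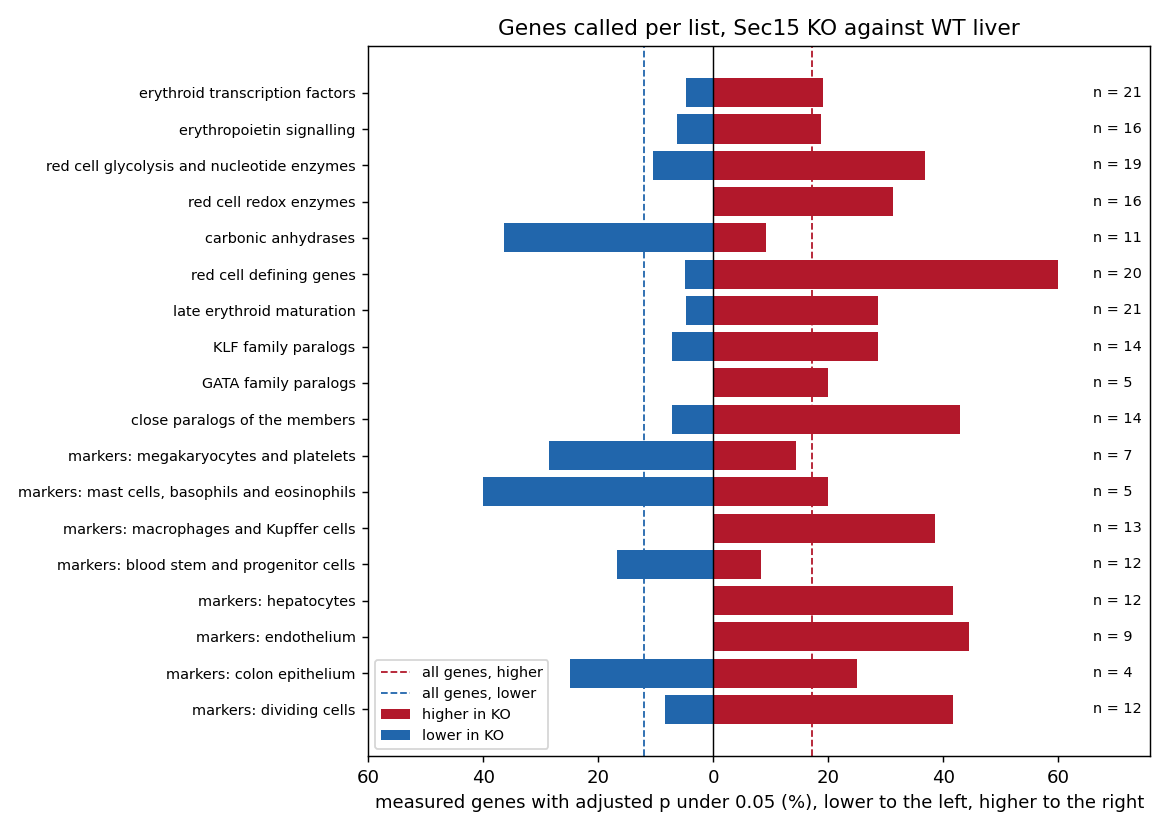
Share of measured genes in each list that were called (%), higher in KO to the right and lower in KO to the left, with the number measured at the right edge. Dashed lines mark the shares over all 22810 genes, 17.1% higher and 12.1% lower. Red cell defining genes reach 60% higher, while carbonic anhydrases lean to the lower side.

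The probes whose pattern over the 6 arrays was most like each called probe were found by Pearson r among probes of other genes. They are a description over 6 points that fall into the 2 genotypes, and they say nothing of shared function. For Bpgm these were Derl1, Tmed10 and Mcee (r of 0.9997 or more), and 1774 of 19557 probes had an r above 0.95. For Hemgn they were Zfp715, Arfgef1 and Eya1, with 2064 probes above 0.95. The nearest for Tspo2 were Pcdhac1, Lrrd1 and Srprb, with 1043 above 0.95. Ermap probe A_51_P391716 was nearest to Mlycd, Serinc2 and Asb6, with 529 above 0.95.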

How the data were processed

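The deposited values are spot intensity from Agilent Feature Extraction 11.0.1.1, per the file headers: the authors' processed signal is the brightness after background subtraction, not normalised between arrays. The deposited files also hold other flags per spot (well above background, saturated, outlier). Groups and replicate numbers came from the labels. The members and gene lists were chosen with earlier results of these data known.

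Outlier spots (178 to 236 per array) were left out, spots of 1 probe were averaged, and each array's log2 values were set relative to its 75th percentile. Probes well above background on at least 3 of 6 arrays, with a value on every array, were tested (27024). Symbols came from a table of RefSeq genes through transcript accessions, with 27234 probes matched and 12195 not. KO and WT were compared with limma 3.58.1 (lmFit, eBayes) in R 4.3.3, with data.table (version 1.17.8), and p-values were adjusted by Benjamini-Hochberg at 0.05. The script was tested on simulated data. The number of arrays limits the precision.

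Named were every probe of the 9 genes, their nearest paralogs, up to 4 genes of smallest p per list, and the 3 probes most like each called one. A few of these are not reported here. Other genes were named after their values were seen: Ikzf1, Tal1, Ldb1, Gfi1b, Zfpm1, Cbfa2t3, Jak2, Stat5a, Stat5b, Gapdh, Rhag, Adgre1 and Hmox1. So were genes not well above background. Alternatives were quantile, median and cyclic loess scaling, normexp (offset 50), detection on all 6 arrays or no filter, robust eBayes with a trend, blocks for replicate number and scan time, the shared scan time alone, the mean of WT replicates 1 and 2, and leaving out each replicate.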

Additional observations from a re-analysis of the deposited data

Results flagged for a closer look

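The Gata1 probe A_55_P2046852 lies outside the test because it passed the filter on too few arrays, yet it was well above background on 2 KO arrays and 0 WT arrays. Tested without a filter, it was not called (limma adjusted p = 0.0557), and no fold is given because the WT signals were not well above background.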

How the results depend on the processing

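Over all probes, 4598 higher and 3144 lower calls became 2947 higher under cyclic loess, 2934 higher with no filter, and 1311 higher and 1212 lower with scan time as a block. Leaving out 1 replicate gave between 204 and 6815 higher and between 149 and 5784 lower, the lowest without WT replicate 3 and the highest without KO replicate 2. The shared scan time alone gave 0 calls in either direction in limma, with 7833 probes at an unadjusted p under 0.05. Of all calls, 59.4% were higher, 70.1% after median centring and 47.8% after cyclic loess; median centring moved the median difference of all probes to 0.19. Among the 10 probes, those called higher numbered 5 under quantile normalisation, 5 under median centring and 0 on the shared scan time alone (4 at an unadjusted p under 0.05). Those called lower numbered 2 with the filter on all 6 arrays, 0 with scan time as a block, 0 on the shared scan time alone, 0 with WT replicates 1 and 2 averaged (2 at an unadjusted p under 0.05 in each of these 3), and 0 to 1 with 1 replicate left out. Car1 probe A_52_P317653 read 0.10 under median centring, 0.032 under normexp, and between -0.122 and 0.060 with 1 replicate left out. The cause of these shifts was not tested. Same-numbered KO and WT arrays deviated together with r of 0.105, 0.108 and 0.024, and the other KO and WT pairs with r between -0.109 and 0.036. So few arrays cannot settle whether the numbers pair the samples. Replicate number as a block gave 3431 probes higher and 2694 lower. Bpgm, Hemgn, Tspo2 and Ermap probe A_51_P391716 kept their calls with that block. Signal over background limits Gata1 and the dim Ermap probes.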

Other observations

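Markers of dividing cells were not uniform. Of 12 measured, 5 were called higher and 1 lower in KO liver, and their summed signal was 6.51 to 7.78 in KO and 6.63 to 7.57 in WT. For these and the lists below, the shares over all genes were 17.1% higher and 12.1% lower. Rrm2, a subunit of ribonucleotide reductase, rose by 2.48 on the log2 scale (SE 0.18, limma adjusted p = 0.00425), and Mki67 by 2.06 (SE 0.23, adjusted p = 0.00697) with 1.83 on its other probe. Ccnb1, a mitotic cyclin, fell by 2.15 on its brightest probe (SE 0.30, adjusted p = 0.00924) and differed by -0.08 and 0.85 on its other probes.

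Endothelial markers had 4 of 9 called higher and 0 lower, where Vwf rose by 1.33 (SE 0.13, adjusted p = 0.00649) and the sinusoidal receptor gene Stab2 by 0.99 (SE 0.11, adjusted p = 0.00651). Among blood stem and progenitor markers 1 of 12 was called higher and 2 lower. With 1 replicate left out 0 to 1 were called higher and 0 to 2 lower. Scan time as a block gave 0 higher and 1 lower, and turned the median from -0.10 to 0.10. The summed signal of these markers was 17.0 to 25.0 in KO and 29.7 to 52.0 in WT. Of this sum, Myct1 read 0.37, 1.78 and 0.64 in KO livers, against 3.48, 4.74 and 4.24 in WT livers, and its second probe differed by -0.39 (adjusted p = 0.443). Hepatocyte markers had 5 of 12 called higher and 0 lower, but 1 in each direction after cyclic loess. KLF family genes had 4 of 14 called higher and 1 lower. With 1 replicate left out, the counts called higher were 1 to 6 for dividing cells, 1 to 6 for endothelium, 0 to 7 for hepatocytes and 0 to 6 for the KLF family, each lowest without WT replicate 3. The highest was reached without WT replicate 1 for the KLF family and without KO replicate 2 for the others. Of 5 measured GATA family genes only Gata3 was called, higher by 0.94 (adjusted p = 0.0452). That call ended without KO replicate 1, KO replicate 3, WT replicate 2 or WT replicate 3 (adjusted p up to 0.124), with no filter, and with scan time as a block (adjusted p = 0.255). Markers of the colon, where Car1 is also made, had 1 of 4 called in each direction.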
